A study of Homo sapiens with 6 samples.

Results

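The genes described here are 48 regulators of actin filaments, covering the Arp2/3 complex and its activators, the formins, the Ena/VASP proteins and the proteins that cap, sever, bundle or bind actin. They were taken by gene symbol from a fixed list, without use of measured values, though the list was chosen with earlier results of these data known. All 48 were found among the 17064 genes listed. They comprise 9 genes of the Arp2/3 complex, 3 of N-WASP and its partner WIP, 9 of the WAVE regulatory complex, 9 formins, 3 Ena/VASP genes, 4 of capping and severing, 7 of monomer binding and 4 of filament binding.

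RNA was sequenced from MDA-MB-231, a human triple-negative breast cancer line. Cells carrying the empty lentiviral CRISPR vector (vector 1 and vector 2, separate transductions) were compared with 1 library of MRCKα KO, 1 of MRCKβ KO and 2 of cells lacking both kinases (DKO 1 and DKO 2, made with different guides). All lines were selected as transduced pools and no clones were picked. MRCKα and MRCKβ, encoded by CDC42BPA and CDC42BPB, are kinases acting downstream of the small GTPase Cdc42, and the comparisons ask what the loss of either or both does to RNA levels.

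Actin filaments are started by nucleators. The Arp2/3 complex starts branches on existing filaments once it is switched on by N-WASP or the WAVE complex, and formins start and lengthen unbranched filaments. Ena/VASP proteins help filaments grow, capping proteins stop them, gelsolin cuts them, and profilins and thymosins hold the pool of monomers from which they are built.

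The expected counts, which are estimated reads per gene, summed to 10657857 and 10349898 in the vector libraries, 10368422 with MRCKα lost, 10632556 with MRCKβ lost, and 10461053 and 10510366 in the DKO libraries. The lowest count of a member in any library was 98.0, for the severing protein gelsolin (GSN) in DKO 2, so every member passed each filter on low counts. Levels are given as FPKM, which divides reads by transcript length and library total, so that genes can be compared with each other. Errors are SD over 2 libraries, and the single knockouts have no replicates.

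Of the targeted genes, CDC42BPB was lower in every knockout library than in the vector libraries, and CDC42BPA was not. CDC42BPA was at an FPKM of 36.4 and 23.3 in the vector libraries, 29.4 with MRCKα lost, 34.9 with MRCKβ lost, and 28.3 and 26.1 in the DKO libraries. The MRCKα KO and DKO libraries thus lay between the vector libraries. CDC42BPB was at 30.3, 29.1, 27.3, 25.7, 23.4 and 23.5 in the order vector 1, vector 2, MRCKα KO, MRCKβ KO, DKO 1 and DKO 2, lowest in the libraries labelled as lacking MRCKβ. In DKO its log2 fold change was -0.37 (SE 0.11, 95% confidence interval -0.64 to -0.11, unadjusted p = 0.0132, adjusted p = 1 by the edgeR quasi-likelihood fit, Benjamini-Hochberg adjusted over all genes). The unadjusted p was 0.103 without DKO 1 and 0.121 without DKO 2, at log2 fold changes of -0.39 and -0.37. Fitted over all 6 libraries, loss of MRCKβ went with a log2 fold change of -0.21 (SE 0.08, unadjusted p = 0.0376, adjusted p = 1 by edgeR), and when any library but vector 2 was left out the unadjusted p was 0.0784 to 0.18, while the log2 fold change stayed between -0.19 and -0.22. A guide that shifts the reading frame need not lower the RNA of its target, so these levels check the labels only weakly.

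Markers of the line were checked next. The epithelial keratin KRT8 ranged over the libraries from 138 to 220 and the mesenchymal-type filament gene VIM from 1532 to 2052, while the epithelial adhesion genes EPCAM and CDH1 were no higher than 2.62 and 0.64. The hormone receptor genes ESR1 and PGR stayed at or below 0.87 and 0.03, while the growth factor receptor gene ERBB2 ranged from 13.2 to 16.2. Of the markers of other cell types, the immune gene CD3E and the endothelial gene CDH5 were at or near 0 in all libraries, while PTPRC ranged from 0.28 to 1.24, CD14 from 0.13 to 1.23 and PECAM1 from 0.93 to 1.88. The 3 immune markers summed to an FPKM of 1.53 and 0.47 in the vector libraries, 1.65 with MRCKα lost, 2.17 with MRCKβ lost, and 1.48 and 0.60 in the DKO libraries. Summed FPKM of the 5 fibroblast markers was 11.1 and 3.75 in the vector libraries, 4.62 with MRCKα lost, 7.28 with MRCKβ lost, and 5.99 and 3.97 in the DKO libraries, with PDGFRB the most abundant in vector 1 at 5.90. PECAM1 was likewise highest in vector 1 and lowest in vector 2. The part of these markers in the results was not tested.

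Vector 2 and, to a lesser degree, DKO 2 stood apart from vector 1 and from the single knockouts. Over 12555 genes whose mean FPKM reached 0.5, the median absolute log2 difference (of FPKM + 0.1) was 0.23 between vector 1 and vector 2 and 0.16 between DKO 1 and DKO 2, against 0.13 between vector 1 and MRCKβ KO. Between vector 2 and MRCKβ KO it was 0.23, and between vector 2 and MRCKα KO 0.21. DKO 2 was at 0.21 from vector 1, 0.21 from MRCKβ KO and 0.19 from MRCKα KO, and at 0.18 from vector 2. Over the members the median was 0.17 between the vector libraries, 0.10 between the DKO libraries and 0.08 between vector 1 and MRCKβ KO, and for vector 2 it was 0.16 from MRCKβ KO and 0.13 from MRCKα KO. The epithelial keratin KRT19 had an FPKM of 60.4 for vector 1 against 28.9 for vector 2, and 48.1 for DKO 1 against 21.5 for DKO 2. KRT8 and EPCAM were also lower in vector 2 than in vector 1, while KRT18 and CDH1 were higher. Summed FPKM of the 5 epithelial markers was 461 and 403 in the vector libraries, and 405 and 314 in the DKO libraries. That of the 3 mesenchymal-type markers, most of it VIM, was 1700 and 2280, and 1700 and 2110. VIM and CD44 were higher in vector 2 than in vector 1 and in DKO 2 than in DKO 1. FN1 was lower in vector 2 (20.1) than in vector 1 (38.1), but higher in DKO 2 (45.7) than in DKO 1 (32.8).

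Most members varied little between libraries, and their levels were spread widely. They held between 1.02% and 1.10% of the counts of a library, and between 1.59% and 1.85% of its FPKM. Of the 48 members, 43 (89.6%) differed by less than 1.5-fold between their highest and lowest library, against 74.3% of the 10104 genes within the same span of mean FPKM. GSN was the single member to differ by 2-fold or more. Monomer-binding genes made up 68.4% of the members' FPKM in vector, and the Arp2/3 genes 13.5%. By counts, which are not divided by length, the shares were 40.9% and 17.4%. In vector, the thymosin gene TMSB10 ranked 6 among all genes by mean FPKM, TMSB4X ranked 11 and the profilin gene PFN1 ranked 25, while FMNL3 ranked 9511 and CYFIP2 ranked 9901 of 17064.

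**Figure D1:**
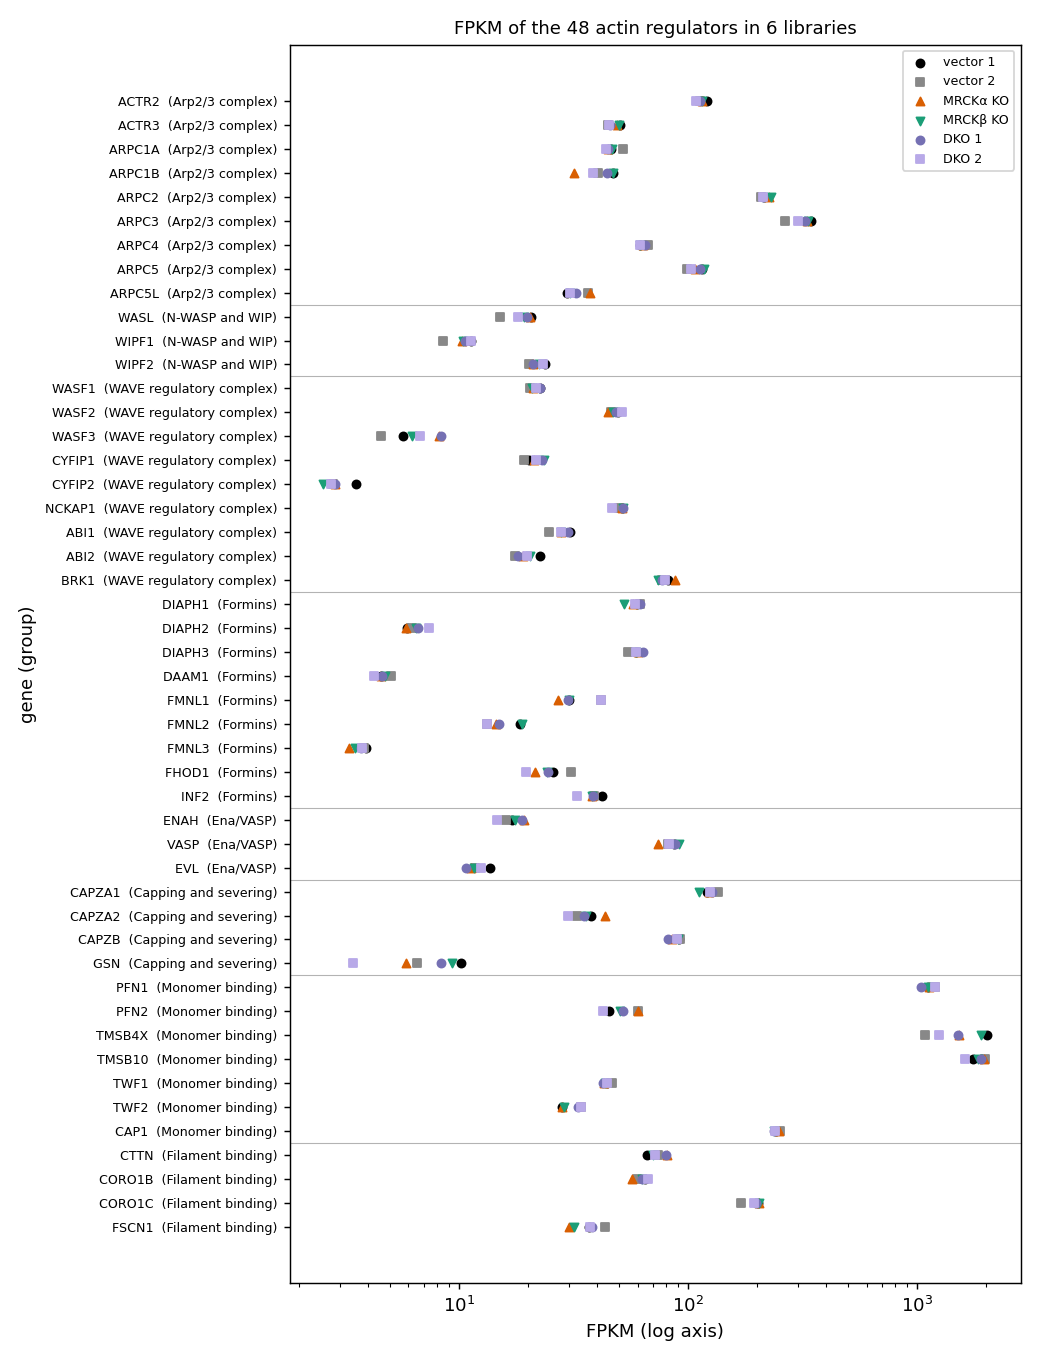
FPKM of each of the 48 members on a log axis, with 1 point per library, ordered by group. Levels run from 2.54 for CYFIP2 in MRCKβ KO to 2021 for TMSB4X in vector 1, and the points of most genes lie close together.

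DKO is the comparison with replicates on both sides. In it, no member passed an adjusted p of 0.05, as no gene did among the 13123 tested by edgeR (0.0% called). At an unadjusted p under 0.05, edgeR returned 313 genes, which is 2.39% of those tested, and 1 of 48 members (2.08%), a share near that of all genes. Without vector 1 it returned 8.60% of all genes and 2 members (4.17%), without vector 2 5.96% and 2 members, and without DKO 2 1.00% and 1 member. DESeq2 called 4 genes at an adjusted p under 0.05 and none was a member. The median log2 fold change of the members was -0.06, beside -0.002 over all genes tested, with 15 members above 0 and 33 (68.8%) below, against 50.7% of all genes below. Without vector 1 the median was -0.012 with 26 members below 0, without DKO 2 it was -0.019 with 29, without vector 2 it was -0.053 with 38, and without DKO 1 it was -0.061 with 34. In the edgeR fit of all 4 libraries, the 95% confidence interval lay within 2-fold in either direction for 47 of 48 members (97.9%), all but GSN. The share was 76.7% of all genes tested. It lay within 1.5-fold for 39 members (81.2%), against 49.6%. The genes tested include many with fewer counts than any member, and intervals widen at low counts. These shares are not matched by level, so they do not show that the members were steadier than genes at their levels.

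**Figure D2:**
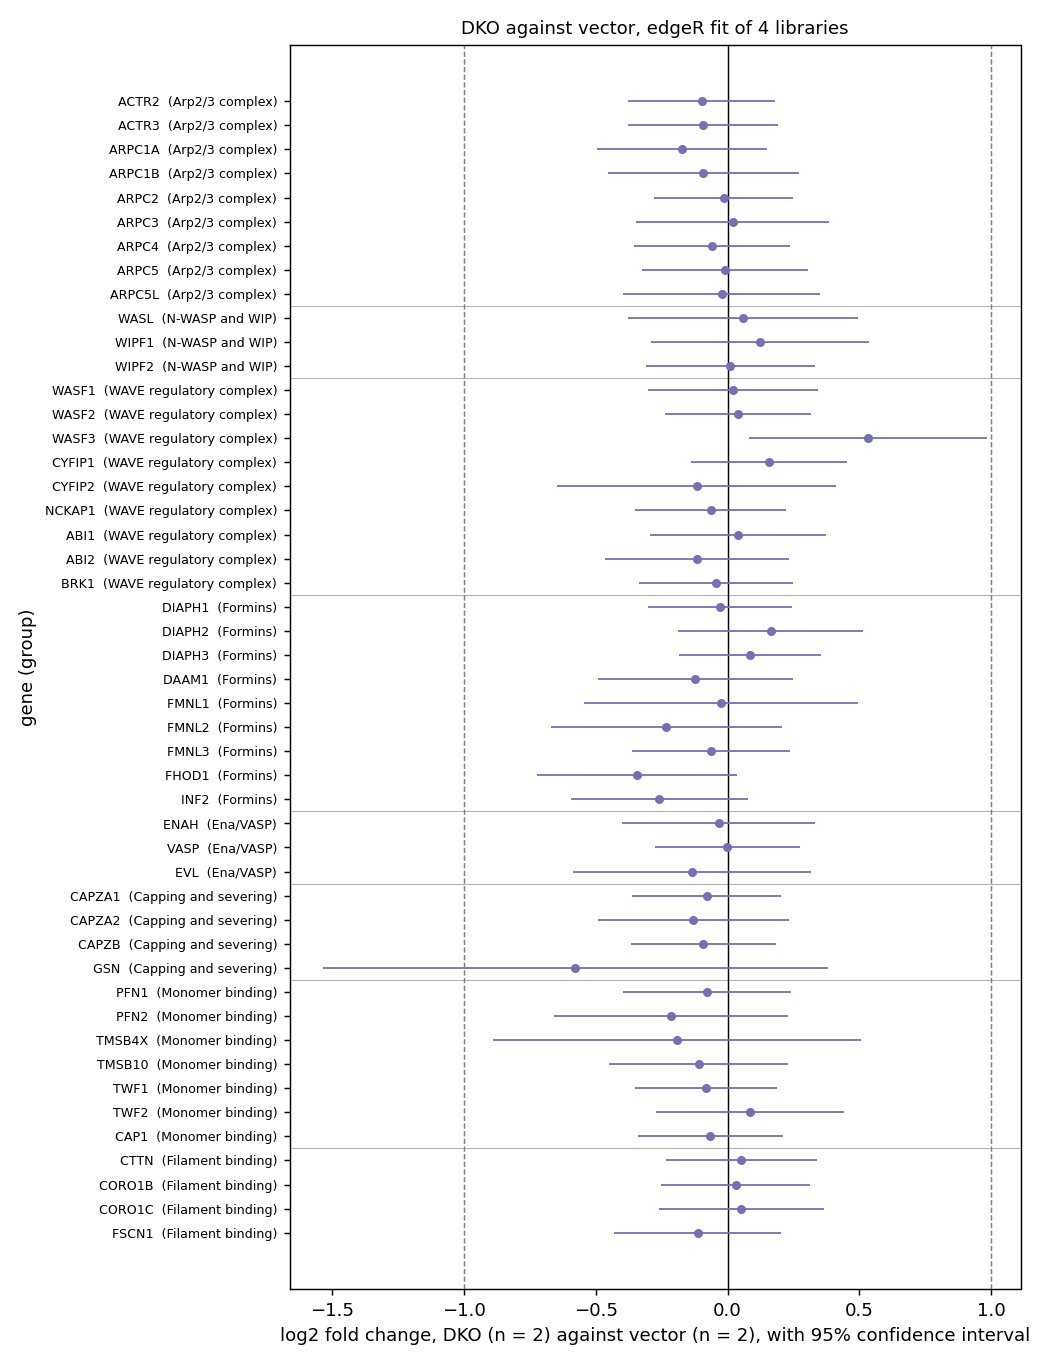
Fitted log2 fold change of each member in DKO (n = 2) against vector (n = 2), with its 95% confidence interval, and dashed lines at a 2-fold change. The intervals of all members but WASF3 include 0, and that of GSN alone crosses a dashed line.

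Within the Arp2/3 complex, which is built from 7 subunits, ARPC3 was the most abundant position at an FPKM of 304 ± 54.3 (SD, n = 2) in vector and 312 ± 14.4 (SD, n = 2) in DKO. The actin-related subunit ACTR3 was the least abundant, at 47.5 ± 3.88 (SD, n = 2) and 45.2 ± 0.38 (SD, n = 2). Between these positions the ratio was 6.81 and 5.93 in the vector libraries, 6.77 with MRCKα lost, 6.70 with MRCKβ lost, and 7.10 and 6.73 in the DKO libraries, so their order was kept in every library. In DKO, 8 of 9 Arp2/3 genes had a log2 fold change below 0, with a median of -0.06, against 50.7% of all genes below 0. The count was 5 without vector 1, with a median of -0.01, 6 without DKO 2 (-0.02), 7 without vector 2 (-0.11) and 9 without DKO 1 (-0.09). On the FPKM scale 6 of 9 were below 0. ARPC1A was the lowest, at -0.17 (SE 0.13), which became -0.26 without vector 1 and -0.08 without vector 2. None had an unadjusted p under 0.05.

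ARPC1A and ARPC1B encode alternative forms of 1 subunit. ARPC1B was at an FPKM of 46.7 and 40.2 in the vector libraries, 31.7 with MRCKα lost, 46.9 with MRCKβ lost, and 44.3 and 38.4 in the DKO libraries. The MRCKα KO library was thus the lowest, DKO 1 lay between the vector libraries and DKO 2 just below them. The share of ARPC1B in the pair was 41.4% in MRCKα KO, against 47.0 ± 4.85% (SD, n = 2) in vector and 48.3 ± 2.21% (SD, n = 2) in DKO. For the other such pair, ARPC5 held 76.3 ± 4.63% (SD, n = 2) in vector and 77.4 ± 0.48% (SD, n = 2) in DKO, with ARPC5L the remainder.

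The activator N-WASP, encoded by WASL, was at an FPKM of 17.8 ± 3.98 (SD, n = 2) in vector and 18.8 ± 1.18 (SD, n = 2) in DKO. Its partners WIPF1 and WIPF2 had levels of 9.88 ± 1.97 and 21.9 ± 2.50 (SD, n = 2) in vector. Fitted changes in DKO ran from 0.01 for WIPF2 to 0.12 for WIPF1, and those of WASL and WIPF1 changed sign without vector 2, at -0.15 and -0.07.

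In the WAVE regulatory complex, WASF3 was the 1 member with an unadjusted p under 0.05 in DKO. WASF3, which encodes the WAVE3 activator of Arp2/3, was at an FPKM of 5.69 and 4.55 in the vector libraries, 8.17 with MRCKα lost, 6.24 with MRCKβ lost, and 8.30 and 6.72 in the DKO libraries. All 4 knockout libraries lay above both vector libraries. The log2 fold change in DKO was 0.53 (SE 0.19, 95% confidence interval 0.08 to 0.99, unadjusted p = 0.0277, adjusted p = 1 by edgeR's quasi-likelihood test), higher in 2 of 2 DKO libraries. Without vector 2 it was 0.38 with an unadjusted p of 0.092, and without DKO 1 it was 0.36 with an unadjusted p of 0.194, so the unadjusted call rests on those libraries.

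WASF3 was the least abundant of its family. WASF2 held 64.2 ± 0.81% (SD, n = 2) of the WAVE FPKM in vector and WASF1 28.9 ± 0.18%, leaving 6.87 ± 0.63% for WASF3. In DKO the share of WASF3 was 9.46 ± 1.48% (SD, n = 2), and it was 11.04% in MRCKα KO and 8.46% in MRCKβ KO. Of the scaffold subunits, CYFIP1 held 86.1 ± 1.44% (SD, n = 2) of its pair in vector and 88.8 ± 0.14% (SD, n = 2) in DKO. NCKAP1, another scaffold subunit, was at an FPKM of 50.7 ± 0.97 in vector and 49.1 ± 3.80 in DKO (SD, n = 2), and the small subunit BRK1 was the most abundant gene of the complex at 79.1 ± 3.71. ABI1 held 58.0 ± 0.74% (SD, n = 2) of the FPKM of ABI1 and ABI2 in vector. By expected counts, which are not divided by length, their order turned, with vector means of 870.5 for ABI1 and 1128.4 for ABI2.

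**Figure D3:**
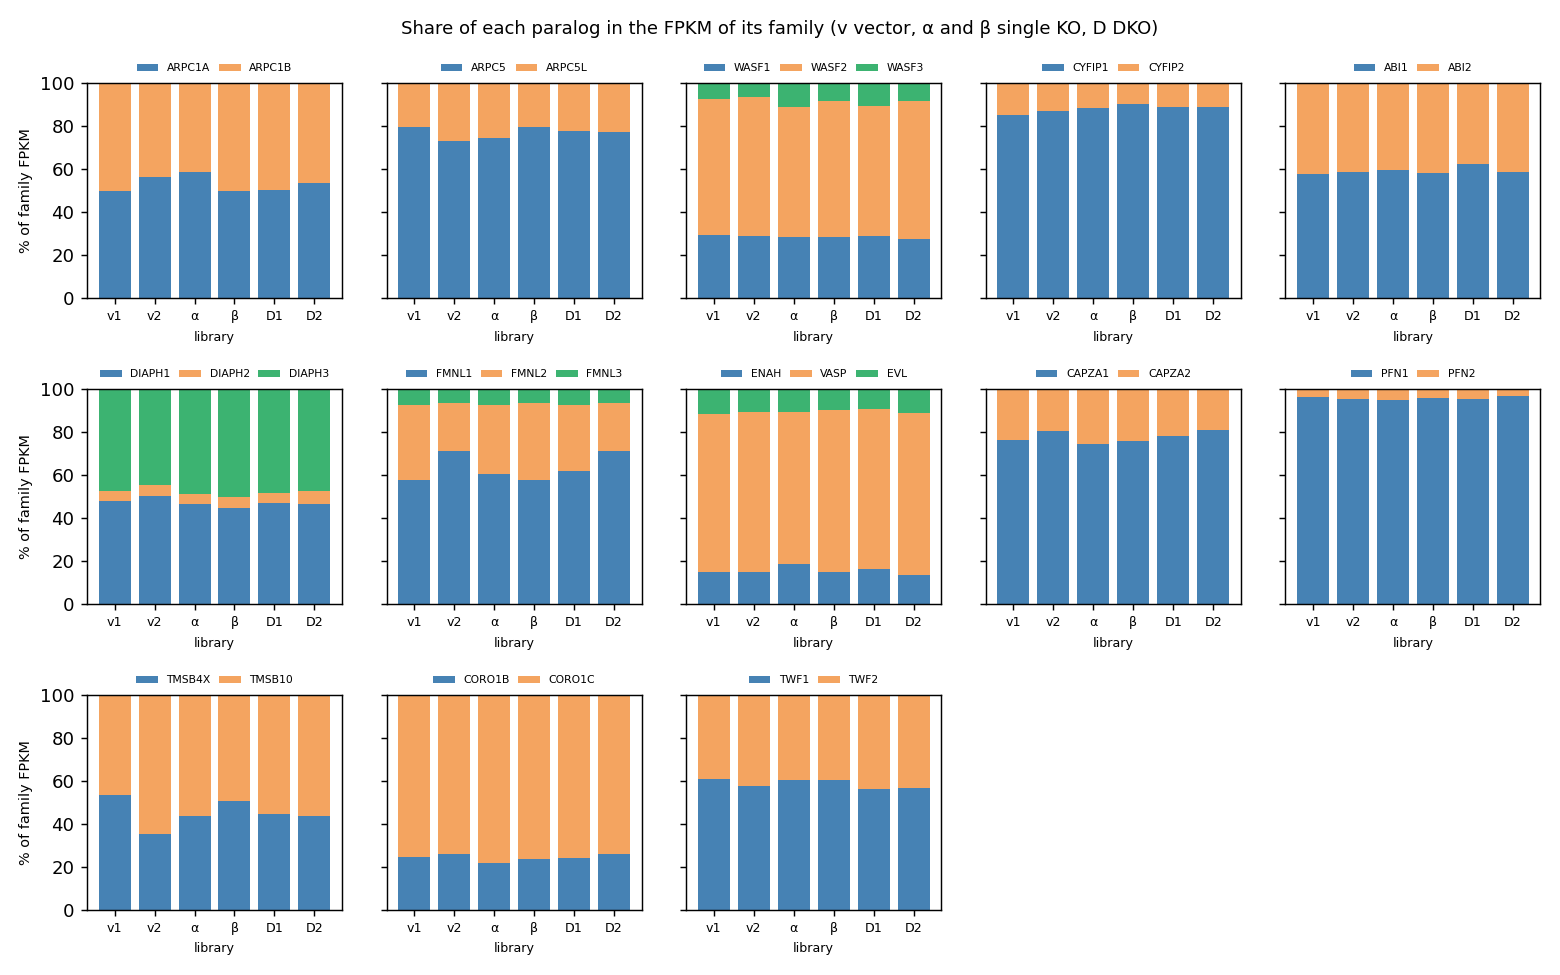
Share of each paralog in the summed FPKM of its family, as a percent, in each library. The order of the paralogs was the same in all libraries but for ARPC1A with ARPC1B, DIAPH1 with DIAPH3 and TMSB4X with TMSB10, and TMSB4X ranged from 35.4% in vector 2 to 53.5% in vector 1.

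Among the formins, DIAPH3 and DIAPH1 were the most abundant, at an FPKM of 57.0 ± 3.24 and 60.4 ± 1.35 (SD, n = 2) in vector. FMNL3 was the least abundant at 3.88 ± 0.04 (SD, n = 2), and DAAM1 was at 4.80 ± 0.36 (SD, n = 2). In DKO, 7 of 9 formins had a fitted change below 0, with a median of -0.06, against 50.7% of all genes below 0. The count was 6 with any 1 vector or DKO library left out, at medians between -0.05 and -0.08. FHOD1, a formin of stress fibres, was at 25.7 and 30.6 in the vector libraries, 21.5 with MRCKα lost, 24.2 with MRCKβ lost, and 24.5 and 19.6 in the DKO libraries. All knockout libraries lay below both vector libraries, and the log2 fold change in DKO was -0.34 (SE 0.16, unadjusted p = 0.0684), or -0.20 without vector 2. Without vector 1 it was -0.47, with an unadjusted p of 0.018. INF2, a formin that also severs filaments, was at 42.0, 38.9, 38.0, 38.1, 38.4 and 32.5 in the same order, with a log2 fold change in DKO of -0.26 (SE 0.14, unadjusted p = 0.11), which was -0.16 without vector 1 and -0.15 without DKO 2.

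FMNL1, a formin of the cell edge, differed between the replicates of both groups. It was at an FPKM of 30.1 and 41.8 in the vector libraries, 26.9 with MRCKα lost, 30.1 with MRCKβ lost, and 30.0 and 41.6 in the DKO libraries. Vector 2 and DKO 2 were the highest, and the log2 fold change in DKO was -0.02 (SE 0.22). The share of FMNL1 in its family was 57.5% in vector 1 and 71.0% in vector 2, and 61.7% in DKO 1 and 71.1% in DKO 2. Its paralog FMNL2 was at 18.4 and 13.2 in the vector libraries, which were 1.38-fold apart, and 14.9 and 13.2 in the DKO libraries. The log2 fold change of FMNL2 in DKO was -0.23 (SE 0.18), with -0.44 (unadjusted p = 0.0183) without vector 2 and 0.02 without vector 1.

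VASP held 74.2 ± 0.54% (SD, n = 2) of the Ena/VASP FPKM in vector and 75.1 ± 0.26% (SD, n = 2) in DKO. ENAH and EVL were at an FPKM of 16.5 ± 0.79 and 12.7 ± 1.27 (SD, n = 2) in vector. Fitted changes of the 3 genes in DKO ran from -0.13 for EVL to -0.0004 for VASP, and EVL was 0.02 without DKO 1.

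The capping protein subunits CAPZA1 and CAPZB were at an FPKM of 128 ± 9.74 and 91.9 ± 0.57 (SD, n = 2) in vector, and CAPZA1 held 78.4 ± 2.94% (SD, n = 2) of its pair. GSN was at 10.1 and 6.52 in the vector libraries, 5.83 with MRCKα lost, 9.33 with MRCKβ lost, and 8.29 and 3.43 in the DKO libraries. DKO 1 lay between the vector libraries and DKO 2 below both, a span of 2.38-fold between the DKO libraries in FPKM + 0.1. The log2 fold change in DKO was -0.58 (SE 0.40, unadjusted p = 0.193 by edgeR). It was -1.26 without DKO 1, -0.12 without DKO 2 and -0.24 without vector 1. With replicate number as a block it was -0.63 (unadjusted p = 0.0105 by edgeR). In that fit FHOD1 and INF2 had unadjusted p of 0.0375 and 0.035, and no member passed after adjustment.

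Of the monomer-binding genes, TMSB4X was at an FPKM of 2021 and 1081 in the vector libraries, 1520 with MRCKα lost, 1893 with MRCKβ lost, and 1510 and 1242 in the DKO libraries. Every knockout library lay between the vector libraries, which were 1.87-fold apart. The log2 fold change of TMSB4X in DKO was -0.19 (SE 0.29), and it was 0.33 without vector 1, -0.05 without DKO 2, -0.35 without DKO 1 and -0.57 without vector 2, the last with an unadjusted p of 0.00713. TMSB10 was at 1865 ± 153 in vector and 1754 ± 196 in DKO (SD, n = 2). The summed FPKM of both thymosins was 80.1% of that of the cytoplasmic actins ACTB and ACTG1 and 64.1% in the vector libraries, 78.8% with MRCKα lost, 81.7% with MRCKβ lost, and 73.8% and 57.0% in the DKO libraries.

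PFN1 was at an FPKM of 1159 ± 56.7 in vector and 1114 ± 112 in DKO (SD, n = 2), and held 95.7 ± 0.65% of the profilin FPKM in vector. PFN2 had a log2 fold change of -0.21 (SE 0.18) in DKO, which was -0.008 without vector 2, -0.07 without DKO 2 and -0.39 without vector 1 or DKO 1. The cyclase-associated gene CAP1, which recycles monomers, was the steadiest member, with a coefficient of variation of 2.47% over the 6 libraries. TWF1 and TWF2, the twinfilins, were at 45.1 ± 1.66 and 31.1 ± 4.23 (SD, n = 2) in vector.

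The coronin gene CORO1C was the most abundant filament-binding gene, at an FPKM of 186 ± 22.1 in vector and 196 ± 3.17 in DKO (SD, n = 2). The branch stabiliser CTTN was at 69.9 ± 5.70 and 75.7 ± 5.98 (SD, n = 2). FSCN1, which bundles filaments in filopodia, was at 37.0 and 43.1 in the vector libraries, 30.3 with MRCKα lost, 31.8 with MRCKβ lost, and 37.9 and 37.2 in the DKO libraries. Both single knockouts lay below both vector libraries, and the DKO libraries lay within the vector range.

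**Figure D4:**
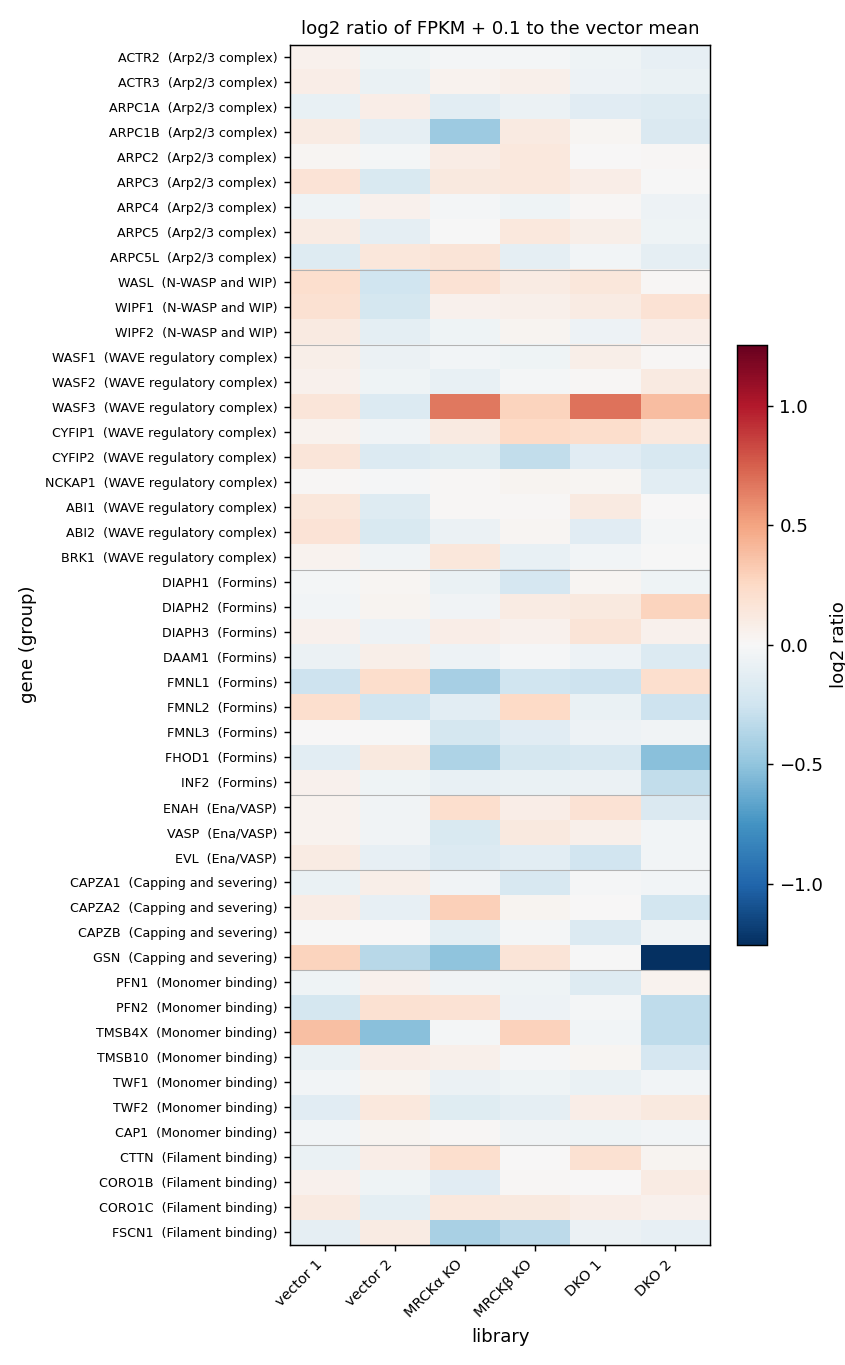
Log2 ratio of FPKM + 0.1 in each library to the mean of the vector libraries, for each member, on a colour scale from blue (lower) to red (higher). The lowest ratio is that of GSN in DKO 2, at -1.26, and the highest that of WASF3 in DKO 1, at 0.69.

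Values of both DKO libraries were above both vector libraries for 4 of 48 members (8.33%), against 17.1% of all genes, and below both for 6 (12.5%), against 12.3%. The members above were WASF3, CYFIP1, DIAPH2 and DIAPH3, and those below were ARPC1A, FMNL3, FHOD1, INF2, CAPZB and CAP1. By the fold rule of the study's methods, which leaves out genes over 2-fold apart between replicates, none of the 47 members kept was 2-fold changed in DKO, against 1.76% of all genes. That share covers genes of any level above 0 and is not matched to the members by level. GSN was the member left out.

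With 1 library of each single knockout, there is no spread between replicates of that knockout, and no p-value is given for it alone. No member was 2-fold changed in MRCKα KO, against 4.38% of all genes, or in MRCKβ KO, against 3.5%. The rule set no minimum level, so these shares include genes near 0, while every member was at an FPKM of at least 2.54. They are not matched to the members by level and do not show that the members changed less than genes at their levels. The MRCKα KO library lay above both vector libraries for 10 members (20.8%), against 33.0% of all genes, and below both for 17 (35.4%), against 26.6%. The MRCKβ KO library lay above for 11 members (22.9%), against 30.5%, and below for 13 (27.1%), against 29.2%. The median log2 ratio of the members was -0.04 in MRCKα KO and -0.01 in MRCKβ KO, beside 0.02 and 0.002 over all genes whose mean FPKM reached 0.5. Without vector 1 the members' medians turned to 0.006 and 0.03.

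In MRCKα KO the 5 members farthest from the vector mean were WASF3, at a log2 ratio of 0.66, GSN at -0.51, ARPC1B at -0.45, FMNL1 at -0.41 and FSCN1 at -0.40. In MRCKβ KO they were FSCN1 at -0.33, CYFIP2 at -0.31, TMSB4X at 0.29, WASF3 at 0.28 and FMNL1 at -0.25. Set against the gap between the vector libraries for the same gene, these were larger for WASF3 (0.32) and ARPC1B (0.21) in MRCKα KO and for FSCN1 (-0.22 for vector 1 over vector 2) in both. They were smaller for GSN (0.63) and TMSB4X (0.90), for FMNL1 in both, and for CYFIP2 and WASF3 in MRCKβ KO. The knockouts share their vector libraries, so the ratios are not independent of each other.

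**Figure D5:**
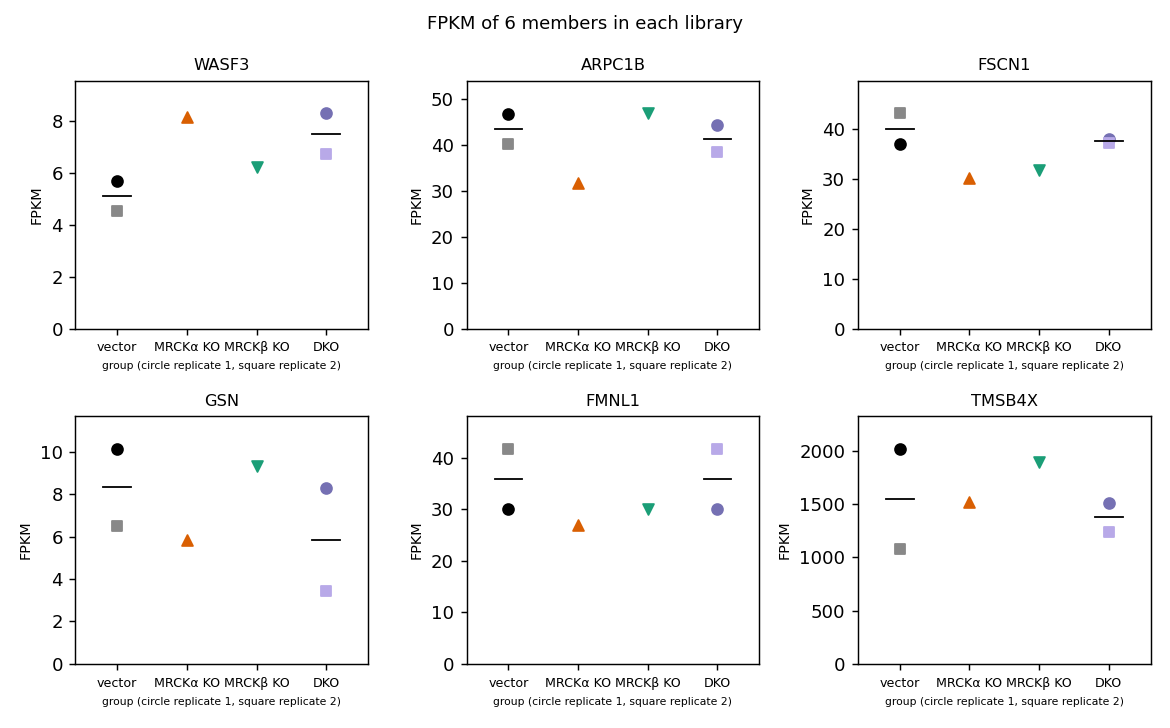
FPKM of WASF3, ARPC1B, FSCN1, GSN, FMNL1 and TMSB4X in each library, on axes that start at 0, with a line at the mean of the groups with 2 libraries. WASF3 is lowest in the vector libraries, and the vector points of TMSB4X are 1081 and 2021.

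Loss of each kinase was also fitted as a factor over all 6 libraries, so that MRCKα KO and DKO together carry the MRCKα factor and MRCKβ KO and DKO the MRCKβ factor. For the MRCKα factor edgeR called none of 13764 genes after adjustment (0.0%), and the unadjusted p was under 0.05 for 507 (3.68%). DESeq2 called 6 genes. Among the members 2 of 48 (4.17%), WASF3 and ARPC1B, had an unadjusted p under 0.05, a share near that of all genes. GSN had the largest change of a member, at -0.64 (SE 0.31, unadjusted p = 0.0774 by edgeR). It ran from -0.41 without DKO 2 to -0.89 without DKO 1. WASF3 had a log2 fold change of 0.45 (SE 0.16, unadjusted p = 0.0247, adjusted p = 0.999 by edgeR) and ARPC1B of -0.34 (SE 0.13, unadjusted p = 0.0321, adjusted p = 0.999 by edgeR). Without the MRCKα KO library the log2 fold change was 0.25 for WASF3 (unadjusted p = 0.317) and -0.20 for ARPC1B (unadjusted p = 0.306), so the size of both rests in part on that 1 library. For WASF3 it was 0.41 without DKO 1 (unadjusted p = 0.0722), and for ARPC1B -0.27 without vector 1 (unadjusted p = 0.0732) and -0.31 without DKO 2 (unadjusted p = 0.0703). The count of members was 5 (10.4%) without vector 2, against 9.87% of all genes, and 4 (8.33%) without MRCKβ KO, against 3.01%.

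For the MRCKβ factor edgeR called none (0.0%), with 281 genes (2.04%) and no member at an unadjusted p under 0.05, and DESeq2 called 5 genes. Members ran from a log2 fold change of -0.23 for PFN2 to 0.24 for ARPC1B, which became -0.09 and 0.10 without MRCKα KO. Without vector 1 the unadjusted p of PFN2 was 0.0492. The interaction of the factors, which asks whether the losses add up on the log scale, was called by edgeR for none of the genes (0.0%), and 235 (1.71%) had an unadjusted p under 0.05. The single knockouts have 1 library each, so the spread behind these p-values came from the vector and DKO libraries alone. No call is drawn from them. FSCN1 was the 1 member among the 235 genes, with an interaction of 0.64 (SE 0.23, unadjusted p = 0.0304, adjusted p = 1 by edgeR). It was 0.62 without DKO 1 (unadjusted p = 0.103) and 0.67 without DKO 2 (unadjusted p = 0.0861). Without vector 1, 1377 genes (10.1%) had an unadjusted interaction p under 0.05, among them FMNL1, FSCN1 and TMSB4X, and without DKO 2 there were 63 (0.461%) and no member.

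A fit without vector 2 and DKO 2 was added after those libraries were seen to stand apart. It called 594 genes (4.37%) and 5 of 48 members (10.4%) for the MRCKα factor, and 76 genes (0.559%) and no member for the MRCKβ factor, with 6 members (12.5%) and 1 member (2.08%) at an unadjusted p under 0.05, against 15.2% and 7.52% of all genes. With 1 library per group its spread was pooled over all genes, at 13598 total degrees of freedom against 7.38 in the fit of 6 libraries, so its p-values take the spread of each gene as known. No call is drawn from it. The fitted changes were 0.45 for WASF3 and -0.33 for ARPC1B, near those from all libraries. As the libraries of this fit are a part of those, MRCKα KO among them, the nearness is no separate check.

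Of 72 other genes of actin regulation, 67 were listed and 55 were tested in DKO, none of which was called after adjustment. An unadjusted p under 0.05 was found for 1 gene of the 55, against 2.39% of all genes tested. It was WASHC1, a subunit of the endosomal WASH activator of Arp2/3, with a log2 fold change of 0.34 (SE 0.13, unadjusted p = 0.0413). The unadjusted p was 0.0523 by DESeq2, 0.0523 without DKO 1, 0.106 without vector 1 and 0.361 without DKO 2, at log2 fold changes of 0.34, 0.46, 0.28 and 0.21. WASHC1 belongs to a family of near-identical copies, so its counts are uncertain. Among 60 tested for the factors, 1 had an unadjusted p under 0.05 for MRCKα and 1 for MRCKβ, against 3.68% and 2.04% of all genes. For MRCKα it was the capping gene CAPG (unadjusted p = 0.0249 by edgeR), at a log2 fold change of -0.25 (SE 0.09). For MRCKβ it was the bundling gene LCP1 (unadjusted p = 0.015 by edgeR), at 1.08 (SE 0.34) and an FPKM no higher than 3.67. CAPG was at -0.30 without MRCKα KO, -0.19 without MRCKβ KO, -0.25 without DKO 1 and -0.23 without DKO 2, with unadjusted p of 0.0676, 0.213, 0.0747 and 0.0641. LCP1 was at 0.76 without MRCKα KO, with an unadjusted p of 0.142. Actin itself had a log2 fold change in DKO of 0.002 (SE 0.12, 95% confidence interval -0.30 to 0.30) for ACTB and -0.004 (SE 0.15, 95% confidence interval -0.38 to 0.37) for ACTG1, which was at an FPKM of 1291 in DKO 1 and 1617 in DKO 2.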

How the data were processed

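Per the labels, total RNA from subconfluent cultures was sequenced on the BGISEQ-500 platform. The submitters' processing notes name HISAT, Bowtie2, RSEM and the build GRCh38.p11, with no versions. The authors deposited expected counts per gene (estimated, not normalized), FPKM values rounded to 2 decimals and transcript lengths. Expected counts were rounded to whole numbers, filtered by filterByExpr, normalized by TMM and tested with the quasi-likelihood test of edgeR 4.0.16 in R 4.3.3, with Benjamini-Hochberg adjustment over all genes and a threshold of 0.05. DKO was compared with vector in 4 libraries, and the factors were fitted additively in 6. Fits were tested on simulated counts. Log2 ratios used FPKM + 0.1. Alternatives were DESeq2 1.42.0, limma 3.58.1 on FPKM, other normalizations, filters and pseudocounts, a replicate block and each library left out. A count of 0 allows up to 3 counts, or 2.81e-05% to 2.90e-05% of a total, and covers counting error only. P-values measure the spread between these libraries, which come from separate transductions or guides.

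Samples were grouped by the labels. Named genes were the targeted genes, the highest and lowest member of each group, the 2 with the largest change per group in DKO, those with an unadjusted p under 0.05 in DKO or a factor, the 5 largest ratios in each single knockout and between replicates, and their paralogs. FSCN1 in the interaction and members beyond this rule were named after their values were seen. The members and lists were chosen with earlier results of these data known.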

Additional observations from a re-analysis of the deposited data

How the results depend on the processing

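Of 273 refits of 21 named log2 fold changes, 264 kept their direction. Many of these refits used the same libraries under another filter, normalization or model, where a kept direction says little. The 21 also leave out some changes given above, such as that of FMNL2 in DKO, which changed sign without vector 1. With a library left out in DKO, TMSB4X ran from -0.57 (without vector 2) to 0.33 (without vector 1). In the same order CORO1C ran from -0.053 to 0.17, WASL from -0.15 to 0.30 and WIPF1 from -0.068 to 0.34. In the reverse order, FSCN1 ran from -0.22 (without vector 1) to 0.0055 (without vector 2). WASL was also -0.016 without DKO 1. EVL ran from -0.31 (without DKO 2) to 0.020 (without DKO 1) and ENAH from -0.24 (without DKO 1) to 0.14 (without DKO 2). With limma on log2(FPKM + 1), ENAH was 4.9e-05. The cause was not tested beyond the smaller number of libraries.

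No gene was called in DKO by edgeR, against 4 by DESeq2, and 0 to 5 with a library left out. For the MRCKα factor the counts were 6 by DESeq2 and 0 to 2, and for the MRCKβ factor 5 by DESeq2. Members with an unadjusted p under 0.05 numbered 1 to 2 in DKO, 0 to 5 for MRCKα and 0 to 1 for MRCKβ with a library left out, where a lone library is assumed to vary like the others. All genes passing it ranged from 1.00% to 8.60% in DKO, from 1.53% to 9.87% for MRCKα and from 0.919% to 3.79% for MRCKβ. Added after the data were seen, the fit of vector 1, DKO 1 and the single knockouts called 594 genes (4.37%) and 5 members (10.4%) for MRCKα and 76 genes (0.559%) and no member for MRCKβ, with 6 members and 1 member (12.5% and 2.08%) at an unadjusted p under 0.05, against 15.2% and 7.52% of all genes, on a spread pooled over all genes.

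With the replicate block, 5 genes were called in DKO, 7 for MRCKα and 1 for MRCKβ. At an unadjusted p under 0.05 there were 4, 5 and 1 members (8.33%, 10.4% and 2.08%), against 6.07%, 9.26% and 6.45% of all genes. Those members were FHOD1, GSN, INF2 and WASF3 in DKO, ARPC1B, FMNL2, GSN, INF2 and WASF3 for MRCKα, and CAPZA2 for MRCKβ. Deviations of libraries with the same number correlated at 0.302 across 13123 genes, which are not independent, and the labels do not say whether the number marks a batch. What else same-numbered libraries share is unknown.

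Shares from expected counts, which are not divided by length, were in vector 77.0% for WASF2, 43.6% for ABI1, 56.7% for DIAPH1, 52.6% for FMNL1, 52.6% for VASP, 94.0% for PFN1, 85.7% for CORO1C and 73.1% for TWF1. In DKO they were 76.5% for ARPC5, 75.0% for WASF2, 88.5% for CYFIP1, 46.2% for ABI1, 54.5% for DIAPH1, 55.1% for FMNL1, 53.5% for VASP, 94.4% for PFN1, 47.8% for TMSB10, 85.9% for CORO1C and 70.7% for TWF1. The members' median in DKO ran from -0.0608 to -0.0119 with a library left out. Its spread between replicates was taken as 0.0596, from log2 ratios of FPKM + 0.1. On that scale the members' median in DKO was -0.0369, and by edgeR it was -0.0601. The spread was thus larger than the median on its own scale and about as large as the edgeR median. A move below that spread therefore cannot show that the median was stable. The counts by the 2-fold rule stayed at 0 in the alternatives run. No interaction was called by edgeR without any 1 of the vector or DKO libraries, fits added after the data were seen. With 2 libraries per group and 1 per single knockout, a p above the threshold does not show equal levels.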
